A study of Homo sapiens with 4 samples.

Results

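The genes described here are 10 genes of gap junctions and of the intercalated disc: the connexins GJA1, GJA3, GJA4 and GJC1, the cadherin CDH2, and the desmosomal genes DSP, DSG2, DSC2, PKP2 and JUP. They were taken as the rows of the table of raw read counts whose Ensembl identifiers map to these symbols, which gave 10 of 60234 genes. The study sequenced RNA from human embryonic stem cells of the NKX2.5:GFP line, in which green fluorescent protein (GFP) reports the cardiac gene NKX2-5, after differentiation to cardiac cells in spun embryoid bodies. Cultures received 1 µM retinoic acid (RA) or the solvent DMSO (control) between day 4 and day 7, and cells were sorted at day 31 into GFP-positive and GFP-negative fractions. This gave 4 libraries, namely GFP-positive RA, GFP-positive control, GFP-negative RA and GFP-negative control, all from this 1 line. With 1 library in each condition there were no replicates, and no p-value is given.

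Cardiomyocytes meet end to end at the intercalated disc, where gap junctions, adherens junctions and desmosomes lie side by side. Connexins form the gap junction channels through which current and small molecules pass, whereas N-cadherin joins the actin filaments of neighbouring cells and the desmosomal cadherins, plakins and armadillo proteins anchor the intermediate filaments. Atrial, ventricular and nodal myocytes differ in the connexins that they use, and most of these junction proteins are also made by other cell types, epithelia among them.

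The libraries held 28125727 reads in genes for GFP-positive RA, 28643091 for GFP-positive control, 26222787 for GFP-negative RA and 4371101 for GFP-negative control. The control GFP-negative library was thus the shallowest, and the others were 6.0 to 6.55 times as deep. Levels are given as CPM, read counts scaled to a common library size with TMM factors, and differences as log2(CPM + 1), which understates the change of genes with few reads. Intervals are at 95% and cover counting error only. A count of 0 allows a level of up to 3 reads, which were worth 0.105 CPM in the control GFP-positive library and 0.639 CPM in the control GFP-negative library. A gene was counted as past 2-fold when its log2(CPM + 1) differed by at least 1 and it had at least 10 CPM in either library.

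The labels of the sorted fractions were checked on cardiomyocyte genes. NKX2-5 itself was at 463 CPM in the RA library and 593 CPM in the control library of GFP-positive cells, and 9.74 and 14.5 CPM in those of GFP-negative cells. The 10 cardiomyocyte markers, among them MYH6 and TNNT2, summed to 16909 and 19759.7 CPM in GFP-positive cells with RA and in control, and 499 and 927 CPM in GFP-negative cells, with none at 0 in any library. MYH6 was the most abundant of them in both GFP-positive libraries and TNNT2 in both GFP-negative ones. In bulk samples such as these, fewer cells of a type and less RNA per cell cannot be told apart.

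GJA1 (ENSG00000152661, chromosome 6, 121756741 to 121770873, plus strand; positions here and below are on GRCh37) encodes Cx43, the main connexin of working ventricular muscle, which fibroblasts and many epithelia also make. It was measured at 48.4 CPM in the RA library and 39.8 CPM in the control library of GFP-positive cells, and 335 and 487 CPM in those of GFP-negative cells. The libraries fell into a low pair of GFP-positive cells and a high pair of GFP-negative cells, and the intervals of the libraries (at most 51.1 CPM and at least 328 CPM) were far apart.

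GJA3 (ENSG00000121743, chromosome 13, 20712394 to 20735191, minus strand) encodes Cx46, best known as a connexin of lens fibre cells. It showed the opposite arrangement, at 369 CPM in the RA library and 471 CPM in the control library of GFP-positive cells, and 19.0 and 29.2 CPM in those of GFP-negative cells, from 9862, 13497, 487 and 137 reads in the same order. It was high in both GFP-positive libraries, with the control above the RA library, and low in both GFP-negative ones.

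GJC1 (ENSG00000182963, chromosome 17, 42875816 to 42908184, minus strand), the gene of Cx45, which is used in the early heart and in conduction tissue, was at 54.1 CPM in the RA library and 56.1 CPM in the control library of GFP-positive cells, and 27.8 and 24.1 CPM in those of GFP-negative cells. Like GJA3, it was higher in both GFP-positive libraries than in both GFP-negative ones. GJA4 (ENSG00000187513, chromosome 1, 35258600 to 35261348, plus strand), the gene of Cx37, a connexin of arterial endothelium, was the scarcest member. It had 40 reads in GFP-positive RA, 0 in GFP-positive control, 107 in GFP-negative RA and 32 in GFP-negative control, or 1.5, 0, 4.17 and 6.81 CPM. It therefore stayed under 10 CPM in each of the 4 libraries, and 9 of the 10 genes passed that filter.

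**Figure D1:**
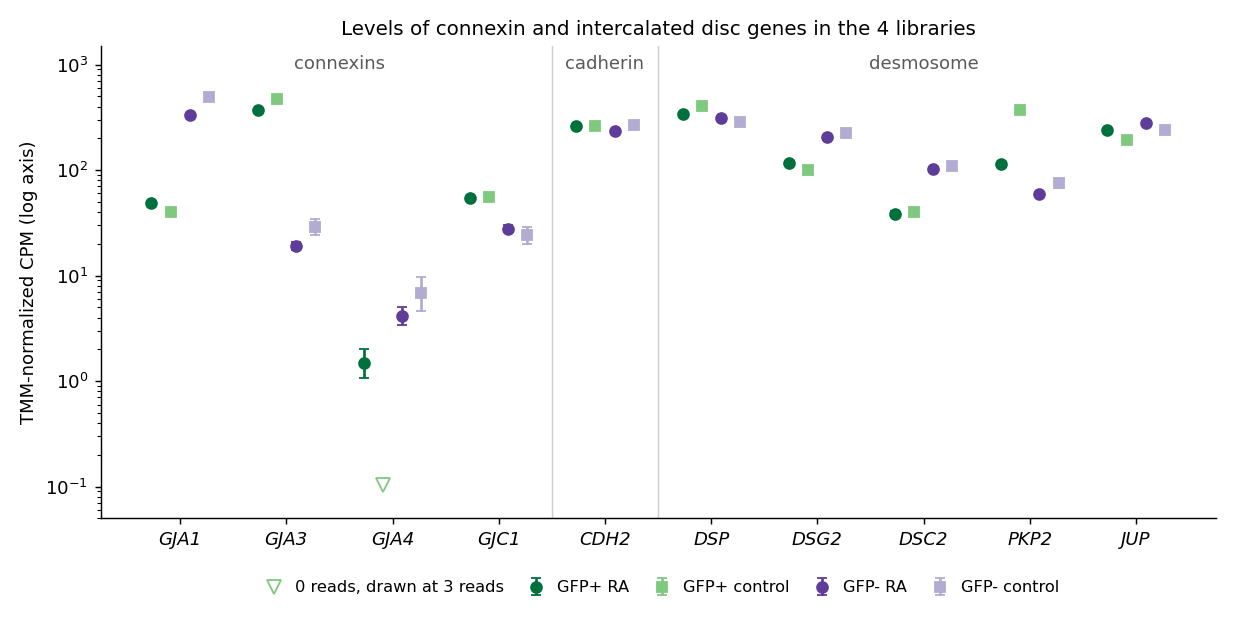
Levels of the 10 genes in each of the 4 libraries, as TMM-normalized CPM on a log axis; points are single libraries and bars the 95% Poisson intervals, which are mostly smaller than the points. GJA1 and GJA3 separated the GFP-positive (green) from the GFP-negative (purple) libraries in opposite directions, CDH2 lay between 233 and 267 CPM in all 4, and the open triangle marks GJA4, with 0 reads in GFP-positive control, at the level of 3 reads.

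CDH2 (ENSG00000170558, chromosome 18, 25512843 to 25757910, minus strand) encodes N-cadherin, the adherens junction cadherin of heart muscle and also of neural and mesenchymal cells. Its levels were 259.95 CPM in the RA library and 262 CPM in the control library of GFP-positive cells, and 233 and 267 CPM in those of GFP-negative cells. No other member varied so little over the 4 libraries. In the order of its levels, GFP-negative control, GFP-positive control and GFP-positive RA did not differ beyond counting error between neighbours, and GFP-negative RA was 1.12-fold (1.08 to 1.16) below the last of these.

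DSP (ENSG00000096696, chromosome 6, 7541571 to 7586947, plus strand) encodes desmoplakin, which ties the desmosomal plaque to intermediate filaments, desmin in heart muscle. It was at 338 CPM in the RA library and 401 CPM in the control library of GFP-positive cells, and 308 and 284 CPM in those of GFP-negative cells. JUP (ENSG00000173801, chromosome 17, 39910856 to 39943183, minus strand) encodes plakoglobin, an armadillo protein of both desmosomes and adherens junctions, and was at 242 CPM in the RA library and 195 CPM in the control library of GFP-positive cells, and 279 and 237 CPM in those of GFP-negative cells. Both plaque genes were thus well expressed in each library, DSP highest in GFP-positive control and JUP lowest there.

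The desmosomal cadherins differed more between the fractions. DSG2, the gene of desmoglein-2 (ENSG00000046604, chromosome 18, 29078140 to 29128971, plus strand), was at 116 CPM in the RA library and 101 CPM in the control library of GFP-positive cells, and 207 and 226 CPM in those of GFP-negative cells. DSC2, the gene of desmocollin-2 (ENSG00000134755, chromosome 18, 28638806 to 28682485, minus strand), was at 38.7 CPM in the RA library and 39.9 CPM in the control library of GFP-positive cells, and 103 and 110.1 CPM in those of GFP-negative cells. Both were low in the pair of GFP-positive libraries and high in the pair of GFP-negative ones, and neither pair overlapped the other.

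PKP2 (ENSG00000057294, chromosome 12, 32943679 to 33049732, minus strand) encodes plakophilin-2, an armadillo protein of the plaque whose loss-of-function variants are known from arrhythmogenic cardiomyopathy. It was at 114 CPM in the RA library and 367 CPM in the control library of GFP-positive cells, and 59.2 and 74.7 CPM in those of GFP-negative cells, from 3039, 10519, 1520 and 351 reads. Here a single library, GFP-positive control, stood above the rest, with an interval of 360.1 to 374 CPM against 109.6 to 118 CPM in GFP-positive RA.

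Some of these counts carry a limit from the gene models. Reads were counted without regard to strand, and 3.58% of the exon bases of CDH2, 0.590% of DSP, 1.96% of DSG2, 4.43% of DSC2 and 4.12% of PKP2 are shared with non-coding genes on the same or the other strand. In the counting mode used, reads that lie wholly in bases of more than 1 annotated gene are counted for neither, so that such reads are lost where both genes were annotated. The connexins and JUP share none. GJA1 has a processed pseudogene, GJA1P1, on chromosome 5, and since reads with a single place in the genome were kept, the level of GJA1 may be undercounted; GJA1P1 itself had 2 to 7 reads in a library.

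Upstream sequence is shown for 4 of the 6 members that were past 2-fold between the control fractions, GJA3, which was higher in GFP-positive cells, against GJA1, DSG2 and DSC2, which were lower. RefSeq promoter windows on GRCh38.p14, another build than that of the counts, were found for 7 of the 10 genes, and not for GJA4, GJC1 and PKP2. GJC1 and PKP2, like GJA3, were higher in GFP-positive cells. The lines give the 250 bases before the transcription start, read 5′ to 3′ on the strand of the gene, at chr13:20161053-20161302, minus strand for GJA3, chr6:121435396-121435645, plus strand for GJA1, chr18:31497927-31498176, plus strand for DSG2 and chr18:31102422-31102671, minus strand for the first listed start of DSC2. Capitals mark matches, on either strand, to AGGTCA (a nuclear receptor half-site, the kind that RA receptors bind), AGATAA (for GATA factors), GGTGTG (T-box factors) or AAGTG (NKX2-5).
GJA3: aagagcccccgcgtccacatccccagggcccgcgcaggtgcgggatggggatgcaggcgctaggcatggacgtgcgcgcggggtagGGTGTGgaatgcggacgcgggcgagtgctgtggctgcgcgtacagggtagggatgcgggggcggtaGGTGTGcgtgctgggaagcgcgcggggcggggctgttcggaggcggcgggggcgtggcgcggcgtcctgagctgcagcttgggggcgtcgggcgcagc
GJA1: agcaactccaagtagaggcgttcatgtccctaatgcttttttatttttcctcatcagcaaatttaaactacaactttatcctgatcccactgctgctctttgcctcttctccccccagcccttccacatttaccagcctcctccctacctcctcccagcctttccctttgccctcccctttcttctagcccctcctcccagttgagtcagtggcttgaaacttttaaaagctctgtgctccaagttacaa
DSG2: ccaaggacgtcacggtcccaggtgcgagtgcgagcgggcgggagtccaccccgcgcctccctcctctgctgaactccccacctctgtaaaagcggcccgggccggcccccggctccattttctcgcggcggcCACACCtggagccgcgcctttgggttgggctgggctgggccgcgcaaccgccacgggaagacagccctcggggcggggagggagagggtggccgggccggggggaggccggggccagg
DSC2: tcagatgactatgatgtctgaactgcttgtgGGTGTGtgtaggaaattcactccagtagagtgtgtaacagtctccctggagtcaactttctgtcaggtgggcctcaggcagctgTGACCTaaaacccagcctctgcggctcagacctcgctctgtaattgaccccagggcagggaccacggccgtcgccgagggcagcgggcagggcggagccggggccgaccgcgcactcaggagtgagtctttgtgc
The GJA3 window held 2 matches to GGTGTG, the DSG2 window 1, and the DSC2 window 1 to GGTGTG and 1 to AGGTCA, while the GJA1 window held none of the 4 motifs. The window of another start of DSC2, not printed, held no GGTGTG or AGGTCA and 1 AAGTG, at 66.8% G and C. Among the members not past 2-fold, also not printed, the DSP window held 1 GGTGTG, at 78.0% G and C. A window of CDH2 held 1 AAGTG, while its other window and those of JUP held none of the 4 motifs. Over all 35116 promoter windows of this length, 12.1% held AGGTCA, 9.17% AGATAA, 14.2% GGTGTG and 37.6% AAGTG. The windows also differed in base composition, with 74.8% G and C for GJA3, 75.2% for DSG2, 59.6% for DSC2 and 48.0% for GJA1, against a median of 58% over all windows.

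The first question was how the junction genes differ between the fractions sorted by the NKX2-5 reporter. In control culture, 3 members were past 2-fold higher in GFP-positive cells, GJA3, PKP2 and GJC1, and 3 were lower, GJA1, DSC2 and DSG2. Of all 11806 genes that reached 10 CPM in either fraction, 11.9% were past 2-fold higher and 13.3% lower. GJA3 was 16.1-fold higher (13.6 to 19.2), PKP2 4.91-fold (4.42 to 5.48) and GJC1 2.33-fold (1.93 to 2.85). GJA1 was 12.3-fold lower (11.4 to 13.2), DSC2 2.76-fold (2.48 to 3.06) and DSG2 2.25-fold (2.10 to 2.42). Connexins and desmosomal genes were thus found on both sides. GJA3 ranked 63 of 11806 by its difference towards GFP-positive cells, and GJA1 171 towards GFP-negative cells. DSP, JUP and CDH2 were not past 2-fold, with ratios of GFP-positive to GFP-negative of 1.41 (1.333 to 1.49), 0.821 (0.770 to 0.877) and 0.981 (0.924 to 1.04). GJA4 had 0 reads in GFP-positive control and was at least 65.1-fold lower there than in GFP-negative cells, counted from the floor of 3 reads and without the counting error of its 32 reads in GFP-negative control. The median difference of the 10 genes, with CDH2 and JUP in the middle, was -0.16, beside 0.08 over the 11070 genes with a mean of at least 10 CPM. Over the 9 members that reach that mean, without GJA4, the median was -0.03, the value of CDH2.

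After RA, 3 members were past 2-fold between the fractions, 1 higher in GFP-positive cells, GJA3, and 2 lower, GJA1 and DSC2. The same held for 9.97% (higher) and 12.4% (lower) of 11850 genes. GJA3 was 19.4-fold higher (17.7 to 21.3), which ranked it 48 of 11850 in that direction. GJA1 was 6.93-fold lower (6.54 to 7.35), and DSC2 2.66-fold (2.47 to 2.86). GJC1 and PKP2 lay just inside the threshold, at 1.95-fold (1.78 to 2.13) and 1.92-fold (1.80 to 2.04) higher, and DSG2 at 1.78-fold lower (1.70 to 1.86). GJC1 passed 2-fold under upper quartile scaling and in a single draw thinned to the smallest library (a log2 difference of 1.14), but not in the mean of 100 such draws (0.94), an alternative chosen after seeing the data. CDH2, DSP and JUP had ratios of 1.12 (1.08 to 1.16), 1.10 (1.06 to 1.13) and 0.867 (0.838 to 0.897), and GJA4 one of 0.359 (0.243 to 0.520). The median of the 10 differences was -0.04 (0.03 with upper quartile factors), beside 0.04 over all genes with a mean of at least 10 CPM. Over the 9 members that reach that mean, without GJA4, the median was 0.13, the value of DSP.

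**Figure D2:**
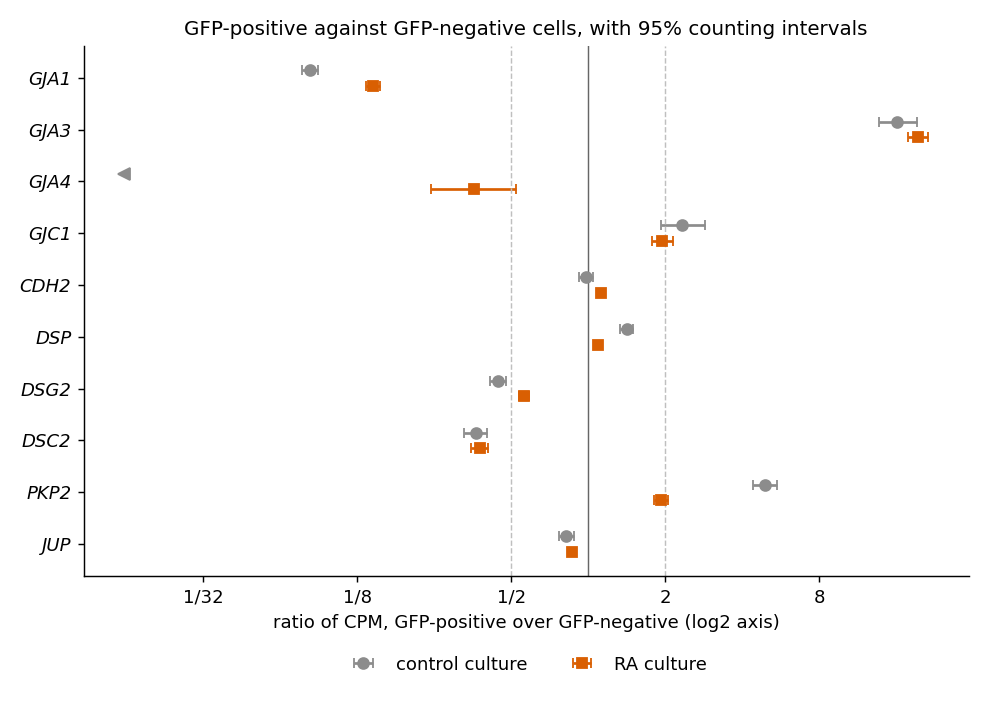
Ratio of CPM in GFP-positive over GFP-negative cells for the 10 genes, on a log2 axis, in control (grey) and RA (orange) culture; bars are 95% counting intervals, dashed lines mark 2-fold, and the grey triangle is GJA4, which had 0 reads in GFP-positive control, at the floor of 3 reads. GJA3 lay at 16.1 and 19.4, and PKP2 at 4.91 in control and 1.92 with RA.

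To compare levels between genes, CPM were divided by the kilobases of annotated exon. On this scale the summed level of the 4 connexins was 92.1 and 108 CPM per kilobase in GFP-positive RA and control, and 108 and 156 in GFP-negative RA and control. The make-up differed more than the sum. GJA3 held 83.3% (82.6 to 83.9%) of the level per kilobase of these 4 connexins in GFP-positive control and 76.8% (76.0 to 77.6%) in GFP-positive RA, but 3.59% (2.99 to 4.18%) and 3.37% (3.07 to 3.67%) in GFP-negative control and RA. GJA1 held 10.8% (10.2 to 11.4%) and 15.5% (14.7 to 16.2%) in the GFP-positive cells, in the same order, and 92.1% (91.0 to 93.2%) and 91.4% (90.9 to 92.0%) in the GFP-negative cells. GJC1 made up 5.94% and 6.75% of it in GFP-positive cells and 1.77% and 2.95% in GFP-negative cells. GJA4 held at most 2.55%, in GFP-negative control. Other connexins are not part of these shares. The connexin gene GJA5 is neither among these 4 nor on the list of other connexins below, and its level is not reported here. The shares are therefore not shares of all connexins.

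Among the 5 desmosomal genes JUP had the highest level per kilobase in each library, at 48.9 and 39.4 CPM per kilobase in GFP-positive RA and control, and 56.4 and 48.0 in GFP-negative RA and control. PKP2 came close to it in GFP-positive control alone, at 35.7 CPM per kilobase, or 30.2% (29.7 to 30.7%) of the desmosomal level, and held 11% (10.7 to 11.4%) in GFP-positive RA. With the longest transcript of each gene as its length, the PKP2 share was 41.7% in GFP-positive control, above the 27.5% of JUP, and 17.0% in GFP-positive RA, so that the size of the share and the order of these 2 genes in GFP-positive control depend on the length used. DSG2 and DSC2 together went from a small to a larger part of the desmosomal level between the fractions, with DSG2 at 8.96% in GFP-positive and 21.9% in GFP-negative control, and DSC2 at 2.70% and 8.10% (1.60% and 5.47% with the longest transcript).

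**Figure D3:**
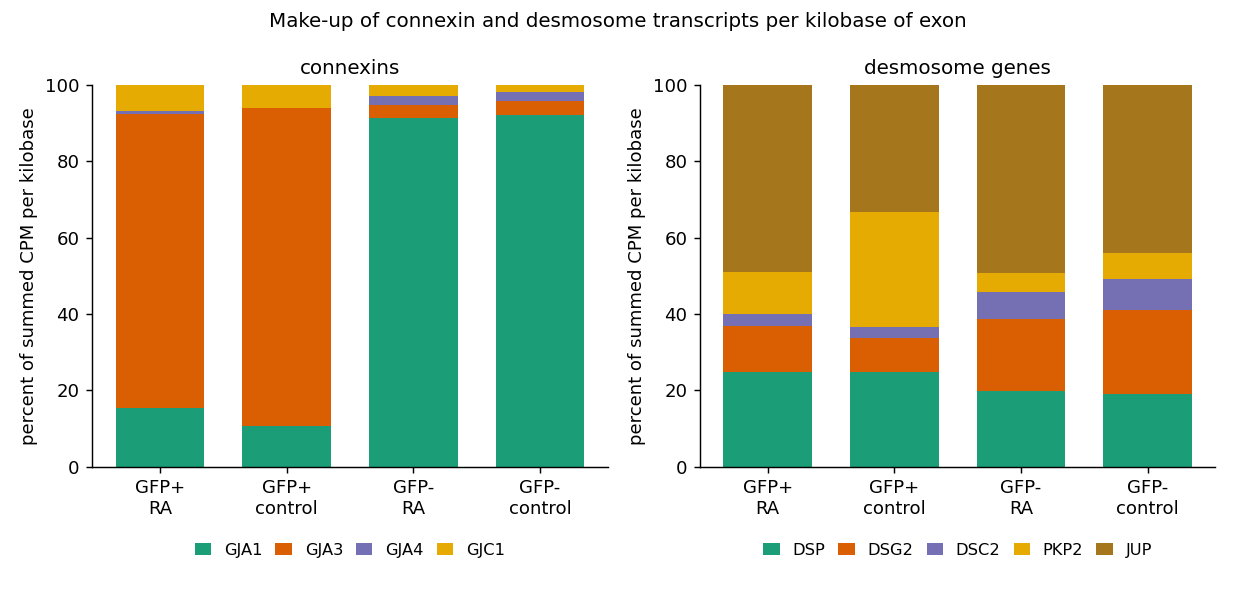
Percent of the summed CPM per kilobase of exon held by each of the 4 connexins described (left) and each of the 5 desmosomal genes (right) in the 4 libraries. Each bar is 1 library and adds up to 100, without other connexins or desmosome genes. GJA3 filled most of the connexin bars of GFP-positive cells (83.3% in control) and GJA1 those of GFP-negative cells (92.1% in control), and the share of PKP2 was 30.2% in GFP-positive control.

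The next question was what RA changed in the GFP-positive cells. Of the 10 genes, PKP2 alone was past 2-fold, and it was lower: 114 CPM with RA against 367 CPM in control, 3.23-fold lower (3.10 to 3.36), a fall by 1.68 on the log2 scale. Over all 11186 genes tested, 1.67% were past 2-fold lower and 4.14% higher, and PKP2 ranked 48 among the falls. The median difference of the 10 genes, with CDH2 and DSC2 in the middle, was -0.03, beside 0.03 for all genes, and its sign depended on the processing (0.07 in the single thinned draw). Over the 9 members with a mean of at least 10 CPM, without GJA4, the median was -0.05, the value of DSC2.

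Smaller differences in GFP-positive cells exceeded counting error for 5 members. The ratio of RA to control was 1.22 (1.12 to 1.32) for GJA1, 1.24 (1.20 to 1.29) for JUP and 1.15 (1.10 to 1.21) for DSG2, all above 1. It was 0.783 (0.763 to 0.804) for GJA3 and 0.843 (0.820 to 0.867) for DSP. GJC1, CDH2 and DSC2 did not differ beyond counting error, with ratios of 0.964 (0.898 to 1.04), 0.991 (0.959 to 1.02) and 0.968 (0.889 to 1.05). GJA4 was at least 14.3-fold higher with RA, counted in the same way from the floor of 3 reads in control, but on 40 reads and at a level of 1.5 CPM. The log2 difference of GJA1, 0.28, turned to -0.23 when the libraries were thinned once to the depth of the smallest, and was 0.25 as the mean of 100 such draws, an alternative chosen after seeing the data.

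In GFP-negative cells none of the 10 genes was past 2-fold between RA and control, against 4.95% of 11606 genes higher and 3.18% lower. The connexins GJA3, GJA4 and GJA1 were all lower with RA, at 1.54-fold (1.26 to 1.86), 1.63-fold (1.07 to 2.45) and 1.45-fold (1.39 to 1.52). PKP2 was also lower, 1.26-fold (1.12 to 1.42), as were CDH2, 1.15-fold (1.08 to 1.22), and DSG2, 1.10-fold (1.03 to 1.17). JUP and DSP had ratios above 1, 1.18 (1.10 to 1.25) and 1.09 (1.02 to 1.15), although that of DSP turned below 1 when scaled by library size alone. For GJC1 and DSC2, with ratios of 1.15 (0.946 to 1.42) and 0.934 (0.849 to 1.03), a difference was not detectable at this depth. With library size alone the median difference over all genes moved from 0.07 to -0.06, and the higher genes from 60.9% to 46.7% of those past 2-fold. The median of the 10 genes was -0.17 under TMM. Over the 9 with a mean of at least 10 CPM, without GJA4, it was -0.13, the value of DSG2.

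**Figure D4:**
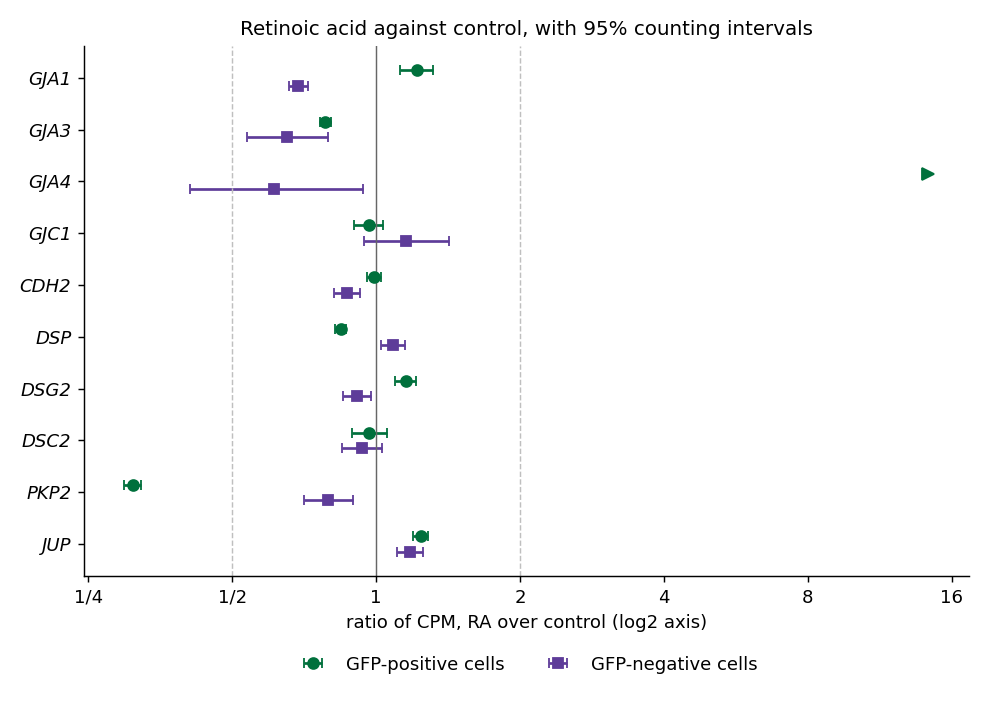
Ratio of CPM with RA over control for the 10 genes, on a log2 axis, in GFP-positive (green) and GFP-negative (purple) cells; bars are 95% counting intervals, dashed lines mark 2-fold, and the triangle is GJA4, which had 0 reads in GFP-positive control, at the floor of 3 reads. PKP2 in GFP-positive cells, at 0.310, lay outside the dashed lines, while its ratio in GFP-negative cells was 0.792.

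Set side by side, the RA ratios of the fractions parted most for PKP2, GJA1 and DSP, in that order, among the 9 genes with at least 10 CPM. The ratio for PKP2 was 2.56-fold (2.26 to 2.89) lower in the GFP-positive fraction, and that for DSP 1.29-fold (1.21 to 1.37) lower. For GJA1 it was 1.77-fold (1.61 to 1.94) higher. Among genes whose interval left out 1, DSG2 and CDH2 followed at 1.26-fold and 1.14-fold higher. The intervals for GJA3, GJC1, DSC2 and JUP included 1, so that their RA ratios could not be told apart between the fractions by counting error. These intervals hold for the 4 libraries, and a difference between cultures was not tested.

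The other genes of these junctions were described by lists. Of 18 other connexins and pannexins, PANX1 and PANX2 reached a mean of 10 CPM. Pannexins form channels to the outside of the cell rather than between cells. PANX2 was 2.06-fold lower with RA in GFP-positive cells (1.84 to 2.31), just past the threshold, and PANX1 was 2.06-fold higher (1.83 to 2.33), with a log2(CPM + 1) difference of 0.99 that fell just short of it on its lower level of 14.3 CPM in control. PANX2 was also 2.64-fold higher in GFP-positive than GFP-negative control (2.04 to 3.49), where PANX1 was 2.14-fold lower (1.76 to 2.59). Neither was past 2-fold between the RA fractions or with RA in GFP-negative cells. The whole list summed to 55.4 and 54.6 CPM in GFP-positive cells with RA and in control, and 74.4 and 59.8 CPM in GFP-negative cells, against 473 and 567 CPM in GFP-positive cells with RA and in control, and 386 and 548 CPM in GFP-negative cells for the 4 connexins described above.

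Of 10 other desmosome genes, which are known mainly from epidermis and other epithelia, 3 reached 10 CPM in either control fraction. Of these, none was past 2-fold higher in GFP-positive control and 2 were lower, beside 11.9% and 13.3% of all genes tested. DSC3 was 30.5-fold lower (25.1 to 37.2) and the plakin gene PPL 3.10-fold lower (2.82 to 3.41). Between the RA fractions 6 reached 10 CPM, so that the counts of the 2 cultures rest on different genes. With RA 1 was higher, PKP1, and 4 were lower, led by PKP3, 11-fold, DSC3, 7.55-fold, and EVPL, 9.33-fold. Over all genes 9.97% were higher and 12.4% lower. Between RA and control in GFP-positive cells 4 reached 10 CPM. Of these, 2 were past 2-fold higher and none lower, beside 4.14% and 1.67% of all genes tested. PKP1, the gene of plakophilin-1, stood at 32.3 CPM with RA and 4.61 CPM in control, 7.01-fold higher (5.83 to 8.49), the reverse of the direction of PKP2, and DSC3 was 2.95-fold higher (2.40 to 3.65). In GFP-negative cells PKP3 was 7.49-fold higher with RA (4.96 to 11.9) and EVPL 5.81-fold higher (3.20 to 11.7), while PKP1 was not past 2-fold. There 6 of the list reached 10 CPM, and 4.95% of all genes tested were past 2-fold higher. The medians of this list were -1.61 and -1.54 between the fractions in control and with RA, and 1.29 and 0.30 between RA and control in GFP-positive and GFP-negative cells, over 5 genes. The 1.29 is the value of PKP3 alone, at 3.33 against 0.768 CPM, while the more abundant PERP and PPL had ratios of RA to control of 0.759 (0.722 to 0.796) and 0.576 (0.525 to 0.632) in GFP-positive cells and the list summed to 182 CPM with RA and 194 CPM in control.

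Of 13 adherens junction and area composita genes, 12 reached 10 CPM in either fraction of each culture. Past 2-fold higher in GFP-positive control was 1, CTNNA3, the αT-catenin of heart muscle, by 2.41-fold (2.03 to 2.87), and again with RA, by 2.99-fold (2.66 to 3.37). Over all genes tested, 11.9% were higher and 13.3% lower in control, and 9.97% and 12.4% with RA. The endothelial cadherin CDH5, the epithelial cadherin CDH1 and CDH13 were lower in GFP-positive cells, by 42.5-fold, 14.9-fold and 4.95-fold in control and by 36.0-fold, 8.74-fold and 6.80-fold with RA. CDH11 was a further gene lower in GFP-positive cells with RA, by 3.11-fold. None of the 13 was past 2-fold between RA and control in GFP-positive cells, where 6 were higher and 7 lower by any size. CDH1 fell just short, at 2.02-fold higher (1.73 to 2.38) with a log2(CPM + 1) difference of 0.94. CTNNA2 and CDH13 were 4.39-fold and 2.26-fold higher but stayed under 10 CPM in both libraries. In GFP-negative cells CDH13 was 3.11-fold higher (2.45 to 3.99) and CTNNA3 2.10-fold lower (1.72 to 2.56). The medians, in the order used for the desmosome genes, were 0.04, -0.03, -0.06 and 0.20 over 12 genes.

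Of the 18 other intercalated disc genes, 15 reached 10 CPM in either fraction, and these leaned to the GFP-positive cells. In control 10 were past 2-fold higher and 1 lower, and with RA 8 were higher and 0 lower. Over all genes the shares were 11.9% higher and 13.3% lower in control, and 9.97% and 12.4% with RA. The medians of the list were 1.46 and 1.64 over the 15 with a mean of at least 10 CPM. In control the leading genes were FHL2 (29.4-fold), a LIM protein, XIRP1 (23.1-fold), an actin-binding protein, and BVES (15.3-fold), a Popeye membrane protein, while CXADR, the coxsackievirus and adenovirus receptor of tight junctions, was 2.06-fold lower. With RA they included XIRP1 (53.0-fold) and POPDC2 (14.4-fold), another Popeye gene. RA took 1 of the 18 past 2-fold in GFP-positive cells, FHL2, which was 2.68-fold lower (2.60 to 2.76) at 211 against 564 CPM. In GFP-negative cells BVES was 2.72-fold higher with RA (1.91 to 4.00). The medians of the list between RA and control were -0.17 for GFP-positive and -0.24 for GFP-negative cells.

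**Figure D5:**
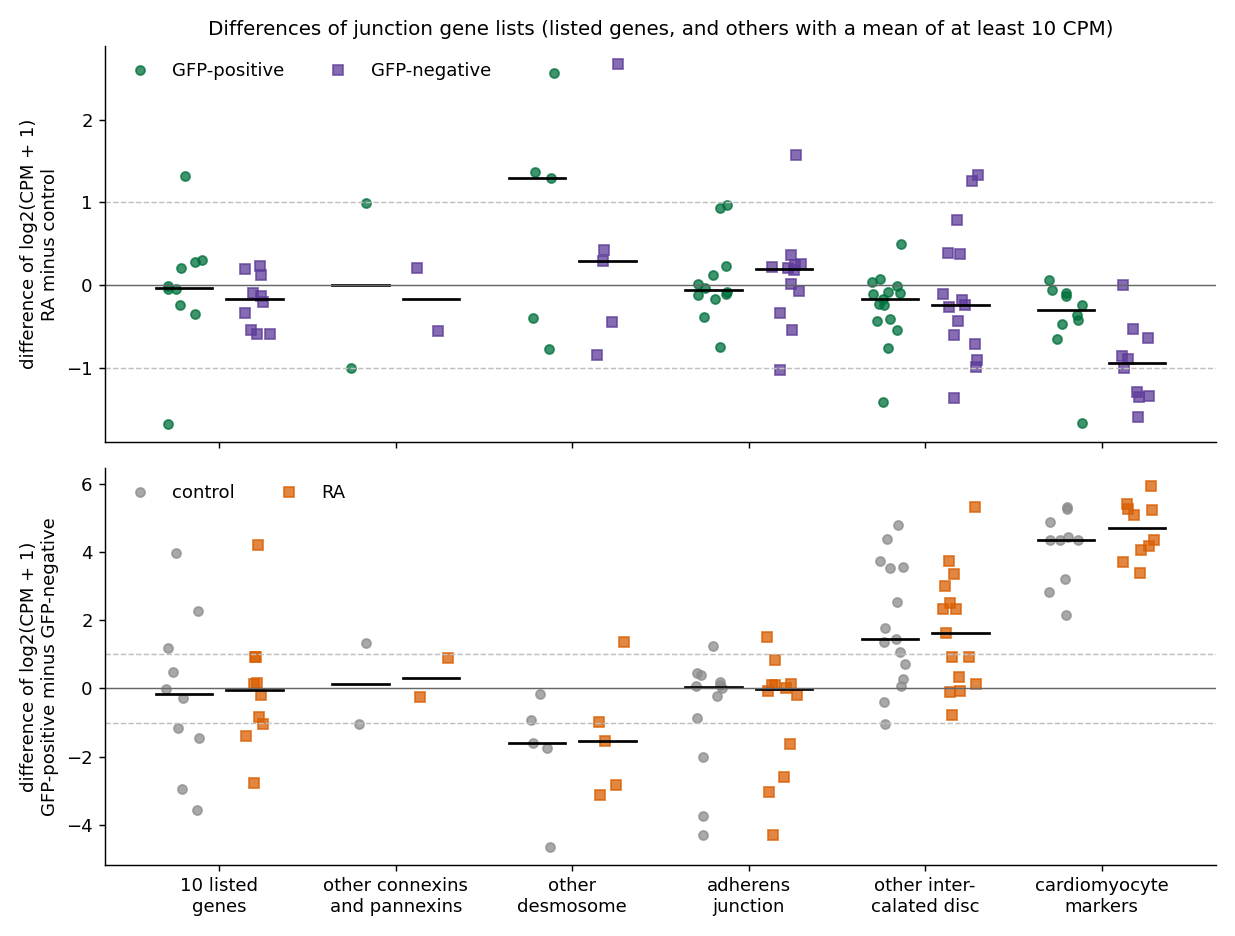
Differences of log2(CPM + 1) for the 10 listed genes and for genes of other lists with a mean of at least 10 CPM, RA minus control above and GFP-positive minus GFP-negative below; points are genes, black bars list medians and dashed lines 2-fold. The medians of the 10 genes were -0.16 in control and -0.04 with RA between the fractions, and those of the other intercalated disc genes 1.46 and 1.64. Without GJA4, which did not reach a mean of 10 CPM, the former were -0.03 and 0.13.

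Markers of other cell types differed between the same libraries. The 10 lens markers summed to 5.68 and 16.1 CPM in GFP-positive cells with RA and in control, and 32.5 and 218 CPM in GFP-negative cells, with CRYAA the most abundant in 3 libraries and BFSP1 in GFP-positive RA. LIM2 and BFSP2 were at 0 in GFP-positive RA, CRYBA1, MIP and BFSP2 in GFP-positive control, and BFSP2 in GFP-negative control. The lens markers were thus highest in GFP-negative control, where GJA3 was at 29.2 CPM, and lowest in the GFP-positive cells, where it was at 369 and 471 CPM. The 6 pigment cell markers summed to 87.0 and 102 CPM in GFP-positive cells with RA and in control, and 92.8 and 717 CPM in GFP-negative cells, with MITF the most abundant in GFP-positive and PMEL in GFP-negative cells and MLANA at 0 in GFP-negative control. The 8 neural markers summed to 59.2 and 15.5 CPM in GFP-positive cells with RA and in control, and 109 and 181 CPM in GFP-negative cells, led by STMN2 in both RA libraries and by PAX6 in both controls, and SOX1 was at 0 in GFP-positive RA. In either control fraction 2 lens, 5 pigment cell and 4 neural markers reached 10 CPM, and 2, 4 and 4 of these were past 2-fold lower in GFP-positive cells. Between the RA fractions 1, 3 and 2 reached it, and 1 of each list was lower. MITF was higher in GFP-positive cells of both cultures. Over all genes tested, 13.3% were lower in control and 12.4% with RA. With RA, STMN2 was past 2-fold higher in both fractions. In GFP-negative cells 2 of 2 lens, 5 of 5 pigment cell and 3 of 4 neural markers with 10 CPM were past 2-fold lower with RA, beside 3.18% of all genes tested. GJA3 and GJA1 were lower there too, by less than 2-fold.

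Genes of stromal and muscle cells differed between the fractions and with RA. The 7 fibroblast markers, led by COL3A1 in each library and with none at 0, summed to 15165 and 3966 CPM in GFP-positive cells with RA and in control, and 61591 and 32089 CPM in GFP-negative cells. In GFP-positive cells all 7 were past 2-fold higher with RA, among them LUM (5.06-fold), DCN (4.64-fold) and COL1A2 (4.40-fold), and in GFP-negative cells 4 were. Between the fractions 6 of the 7 were past 2-fold lower in GFP-positive cells in each culture, and PDGFRA was higher with RA. The 6 smooth muscle markers summed to 2655 and 1604 CPM in GFP-positive cells with RA and in control, and 1716 and 1067 CPM in GFP-negative cells, with DES the most abundant in GFP-positive and TAGLN in GFP-negative cells and none at 0. Of these 4 were past 2-fold higher with RA in GFP-positive cells, led by MYH11 (34.3-fold), ACTG2 (22.7-fold) and ACTA2 (3.30-fold), and 2 in GFP-negative cells, ACTG2 and TAGLN. DES and CNN1 were higher in GFP-positive cells of both cultures, and MYH11 with RA, while TAGLN was lower in both, MYH11 in control and ACTG2 with RA. DES is also on the list of intercalated disc genes and is made by heart muscle. All 10 cardiomyocyte markers were past 2-fold higher in GFP-positive cells of both cultures. With RA 1 of them was past 2-fold in GFP-positive cells, MYH7, 3.18-fold lower (3.12 to 3.23), in the same direction as PKP2, and 4 were lower in GFP-negative cells, MYH7, RYR2, TNNC1 and ACTN2. In GFP-negative cells 9 of the 10 were lower with RA by any size, with a median of -0.95, beside the 1.54-fold lower level of GJA3 there. In GFP-positive cells 9 of the 10 were likewise lower by any size, with a median of -0.30, beside a ratio of 0.783 for GJA3.

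The summed levels of epithelial and endothelial markers were higher in GFP-negative cells, where GJA1, DSG2 and DSC2 were also higher. The 10 epithelium markers, led by KRT8 in each library and with none at 0, summed to 773 and 781 CPM in GFP-positive cells with RA and in control, and 2800.05 and 1638 CPM in GFP-negative cells. The 6 surface ectoderm markers, led by KRT5, summed to 13.2 and 6.0 CPM in GFP-positive cells with RA and in control, and 58.8 and 35.1 CPM in GFP-negative cells, with KRT15 at 0 in GFP-negative control. The 8 endothelium markers summed to 109 and 88.3 CPM in GFP-positive cells with RA and in control, and 448 and 388 CPM in GFP-negative cells. EGFL7 was the most abundant in 3 libraries and KDR in GFP-negative control. In GFP-positive control ESAM and VWF were at 0 and EGFL7 was at 71.2 CPM. Past 2-fold lower in GFP-positive cells were 5 epithelium, 1 surface ectoderm and 5 endothelium markers in control, of 8, 1 and 6 with 10 CPM. With RA 10, 2 and 6 were lower, of 10, 2 and 7. Over all genes tested, 13.3% were lower in control and 12.4% with RA. RA took CLDN4 and EPCAM past 2-fold higher in GFP-positive cells, and 5 epithelium markers, TFAP2A, ERG and TIE1 in GFP-negative cells. CDH1 and CDH5 stand both here and among the adherens junction genes. The part of these markers in the levels of the junction genes was not tested.

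For 4 of the members, the genes nearest in pattern were found as those with the smallest Euclidean distance between centred log2(CPM + 1) profiles over the 4 libraries, among 12406 genes with at least 10 CPM in a library. Nearest to GJA3 was MYOM1, the gene of the M-band protein myomesin, at a distance of 0.124, followed by DPY19L2P1 (0.259), HHATL (0.328), AHNAK2 (0.329) and TNNI1 (0.344). MYOM1 was at 367.5 CPM in GFP-positive RA, 503 in GFP-positive control, 21.2 in GFP-negative RA and 32.2 in GFP-negative control. GJA1 was followed most closely by TTC9 (0.0738), CYBRD1 (0.10), GPRC5A (0.104), TDO2 (0.110) and CRIM1 (0.163). In GFP-positive RA and control TTC9 was at 3.25 and 2.27 CPM, and TDO2 at 1.76 and 1.05 CPM. At such levels the added 1 CPM shrinks differences, so the closeness of these genes to GJA1 depends on it. For PKP2 the nearest were EGF (0.16), SH3RF2 (0.283), NLGN1 (0.307), MASP1 (0.312) and B3GNT7 (0.418), each likewise highest in GFP-positive control. The flat profile of CDH2 was nearest to those of IK (0.0107), LETM1 (0.0181), NMT1 (0.0194), WDR74 (0.0222) and UGGT1 (0.0298). With 4 libraries many genes share a pattern, and nearness in it is a description of these libraries.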

How the data were processed

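RNA from sorted cells was made into strand-specific libraries, which were sequenced from both ends. According to the methods and the submitters' processing notes, the authors trimmed reads with SICKLE, aligned them to a custom hg19 genome with GSNAP, keeping reads with a single location, and handled alignments with SAMtools 0.1.18. The deposited values are raw read counts per Ensembl gene from HTSeq 0.6.1p1, not stranded, in intersection-nonempty mode. How hg19 was altered, and from which release of Ensembl the genes came, was not given in the sources used here. Unique mapping lowers counts of genes with close copies, and unstranded counting adds antisense reads to a gene where no other gene is annotated.

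From these counts CPM were computed with TMM factors of the 4 libraries (0.951 for GFP-positive RA, 1.00 for GFP-positive control, 0.979 for GFP-negative RA, 1.07 for GFP-negative control) from edgeR 4.0.16 in R 4.3.3. Python 3.11.15 with SciPy 1.17.1 gave exact Poisson intervals of levels and Clopper-Pearson intervals of ratios, at 95%; intervals of shares and of ratios of ratios used the normal approximation. Intervals and the 2-fold rule were tested on simulated counts that held counting error only. Variation between cultures or sorts was not simulated, so the test does not bear on it. Gene positions and exon lengths came from GENCODE v44lift37, and 43521 of 60234 identifiers were matched to a name. The 10 members and the gene lists were chosen with earlier results of these data known. The text names the 10 members, up to 3 genes per other list and direction in a comparison by size among those with at least 10 CPM, markers by their CPM, and the 5 genes nearest in pattern to GJA1, GJA3, CDH2 and PKP2. The alternatives were library size alone, DESeq2 1.42.0 size factors, upper quartile factors, TMM factors of each pair, pseudocounts of 0.25 and 5 CPM, thinning to 4371101 reads, a threshold of 1.5-fold, a minimum of 1 CPM or none, and the longest transcript as length. With 1 library per group no p-value was computed.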

Additional observations from a re-analysis of the deposited data

Results flagged for a closer look

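In 4 genes the difference between RA and control had opposite signs in the fractions, with counting intervals that left out no change on both sides. GJA1 differed by 0.28 on the log2(CPM + 1) scale in GFP-positive cells and by -0.54 in GFP-negative cells, and GJA4 by 1.32 and -0.60, on at most 107 reads. The first of the GJA4 values rests on 0 reads in control and ran from 0.38 with a pseudocount of 5 CPM to 2.80 with 0.25 CPM. In the same order DSP differed by -0.25 and 0.12, and DSG2 by 0.20 and -0.13. The signs were not opposite for DSP by library size alone (-0.02 in GFP-negative cells), nor for GJA1 in a single thinned draw (-0.23 in GFP-positive cells). Over 100 such draws, an alternative chosen after seeing the data, that GJA1 difference had a mean of 0.25 and was above 0 in 97. None of these values was past 2-fold at 10 CPM or more, each rests on 1 library per condition, and the difference between the fractions, given above with counting intervals for GJA1, DSP and DSG2, was not tested with replicates.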

How the results depend on the processing

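Of the 40 differences of single members, 34 kept their sign under the 7 scalings, pseudocounts and thinned reads, and 6 did not. In GFP-positive cells RA against control changed sign for GJA1 (-0.23), GJC1 (0.11), CDH2 (0.03) and DSC2 (0.17) in the single thinned draw, in which GJA1 had 152 and 188 reads. The means of 100 draws, chosen after seeing the data, were 0.25 for GJA1, -0.06 for GJC1, -0.02 for CDH2 and -0.01 for DSC2. DSP in GFP-negative cells was -0.02 by library size alone, and CDH2 between control fractions was 0.01 with factors of that pair. The cause of the last 2 was not tested. PKP2 in GFP-positive cells stayed between -1.77 and -1.65 under these 7 settings, and was the member past 2-fold in each of them. The median of the 10 members ran from -0.10 to 0.07 for RA in GFP-positive cells and from -0.08 to 0.03 between the RA fractions, and stayed negative in GFP-negative cells (-0.30 to -0.16) and between the control fractions (-0.26 to -0.11). These medians include GJA4. Without it the medians under TMM were -0.05, 0.13, -0.13 and -0.03 in the same order.

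At 1.5-fold, GJA3 became the 1 member called between RA and control in GFP-negative cells, and 6 members were called between the fractions with RA, where 3 were at 2-fold. The genes called in all were then 1510 for RA in GFP-positive cells (650 at 2-fold), 2492 in GFP-negative cells (943), 5290 between the control fractions (2973) and 4764 between the RA fractions (2656). With a minimum of 1 CPM, and likewise with none, they were 1260, 3038, 5837 and 4393 in the same order. A pseudocount of 5 CPM left 592 in GFP-negative cells. These counts follow from looser or stricter rules. With the longest transcript as length, the GJA3 share of the 4 connexins was 74.9% in GFP-positive RA, 81.7% in GFP-positive control and 3.07% in GFP-negative RA. Among desmosomal shares, that of PKP2 then moved by over 1.5 times, to 17.0% in GFP-positive RA, 8.02% in GFP-negative RA and 10.5% in GFP-negative control, and that of DSC2 to 2.04% in GFP-positive RA and 1.60% in GFP-positive control. GJA4 between RA and control in GFP-positive cells ran from 0.38 to 2.80 with the pseudocount. Depth limits GJA4, GJC1 and GJA3 most in GFP-negative control, where they had 32, 113 and 137 reads.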
